A study of Mus musculus with 76 samples.

Results

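The comparison set 3 hearts of WT mice on time-restricted feeding (TRF) taken at CT12 against 3 hearts of WT mice fed ad libitum (AL) taken at CT0, 6 of the 76 libraries of the series. CT is circadian time in hours. The groups were chosen from measured values: at these feeding and time combinations both had low Dbp and high Nfil3. The hearts were thus taken at opposite circadian times and under different feeding, with Nfil3 high in both relative to the other heart groups. Dbp was low in both, though some other heart groups had Dbp as low. The series holds RNA-seq counts, from total RNA, of mouse (Mus musculus) liver, heart and suprachiasmatic nucleus (SCN, the seat of the central clock) in 24 groups of tissue, feeding, genotype and time. Besides the 6 hearts, the comparison was repeated in 4 TRF KO hearts at CT12 and 3 AL KO hearts at CT0, whose genotype is labelled Bmal1-VIPKO (the series title speaks of a central knockout of Bmal1, symbol Arntl, by way of VIP), and beside the 6 livers that carry the same title numbers as the 6 WT hearts. Libraries are named here by those numbers, 10, 11 and 12 under TRF and 38 and 39 under AL, and the remaining AL WT CT0 library, titled Heart_AL_WT_CT0_401, is called the 3-digit AL library. The labels give the groups no age, sex, feeding window or Cre line, and do not say whether libraries came from separate animals, so p-values measure the spread between libraries.

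The circadian clock of a heart muscle cell is a feedback loop. ARNTL (BMAL1) with CLOCK or NPAS2 binds E-boxes and turns on Per, Cry, Nr1d1 and the PAR bZIP genes Dbp, Tef and Hlf. The NR1D (REV-ERB) proteins repress Arntl, Clock, Npas2 and Nfil3 through ROR response elements, so Arntl and Nfil3 are normally high when Dbp is low. Nfil3 encodes a repressor that competes with DBP for D-boxes. Meals shift the clocks of peripheral organs away from that of the SCN, and the heart also responds directly to meals and fasting through insulin, fatty acids acting on PPAR alpha, glucocorticoids and body temperature.

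Letters of the E-box and of the ROR element lay near the start sites of several of these clock genes, and the sites are shown as examples of the elements through which the loop described above is known to run. Of the 2 genes used to choose the groups, Nfil3 had a match and Dbp had none in its window. RefSeq promoter windows of GRCm38.p6, the 250 bases before the start, were searched on both strands for CACGTG (E-box), AGGTCA (core of the ROR element, TGACCT on the other strand) and AGAACA (core of a glucocorticoid receptor site, TGTTCT on the other strand). In the 30 bases shown for each gene, on the strand of the gene, capitals mark the match, and its distance is counted back from the start. The 4 clock genes below are Tef (chr15:81802534-81802563, plus strand, 127 bases before the start), Cry1 (chr10:85185097-85185126, minus strand, 60 bases before), Nfil3 (chr13:52981040-52981069, minus strand, 12 bases before) and Clock (chr5:76303604-76303633, minus strand, 119 bases before).
Tef: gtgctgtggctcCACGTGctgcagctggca
Cry1: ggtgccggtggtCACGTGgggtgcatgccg
Nfil3: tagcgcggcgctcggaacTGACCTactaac
Clock: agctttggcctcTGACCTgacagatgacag
Of the 19 core clock genes, 16 had a window in the table, and 5 of them held CACGTG and 4 held AGGTCA. Over all 32851 windows, CACGTG was found in 6.02%, AGGTCA in 14.0% and AGAACA in 16.1%. No match says only that these letters are not in this window.

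The 6 libraries held 15095962 to 17187903 counts and 11.4 to 12.7% mitochondrial counts, with scaling factors of 0.958 to 1.013. Cardiomyocyte markers made up 85242 to 89882 CPM, which are counts scaled to the library total, in the TRF CT12 hearts and 78675 to 81339 CPM in the AL CT0 hearts, so both groups carried heart RNA, with no overlap between them. Sln, an atrial marker, was at most 0.132 CPM in these 6 hearts. Of the other hearts in the same fit, the AL WT CT12 group carried brain RNA (Snap25 66.2 to 227.6 CPM) and the AL KO CT0 group carried atrial RNA (Sln 156 to 409 CPM). The AL WT CT12 group carried atrial RNA too, with summed atrial markers of 539 to 3741 CPM. These were 84.2 to 105 CPM in TRF CT12 and 81.8 to 90.8 CPM in AL CT0 WT hearts. AL WT CT12 library 48 had 34.2% mitochondrial counts. Among the 6, Alb, a liver marker, was 1.25, 2.55 and 3.43 CPM in the TRF CT12 hearts and 0, 27.4 and 7.76 CPM in the AL CT0 hearts, and Snap25 was found in the 3-digit AL library alone (1.21 CPM). The 3-digit library was also closer to library 38 than any other pair of these groups: their squared differences were 1.99 times the sampling variance, against 4.62 to 12.8 for the other pairs. In the AL KO CT0 hearts, library 56 and the library with a 3-digit number were as close, at 1.75, against 18 and 19 for the other pairs. The library with a 3-digit number was also close to 1 partner in AL KO CT12 hearts (2.69, against 16.1 and 23.1 for the other pairs). In AL WT CT12 hearts the close pair was at 2.96, against 246 and 269 for the other pairs. These ratios are more than sampling noise, but they cannot tell separate animals from repeated libraries of 1 animal. The 3-digit AL WT CT0 library held the middle value of its group in 42.3% of heart genes. Summed liver markers were 3.27 CPM in library 38, 19.3 CPM in the 3-digit library and 55.5 CPM in library 39. Summed brain markers were highest in the 3-digit library (133, 147 and 124 CPM in the same order). Whether this library was independent of libraries 38 and 39 was not tested. The libraries were counted separately, with results given without the 3-digit AL library as well.

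Of the 2 genes used to choose the groups, Nfil3 was near the same level in both groups, and Dbp was low in both but averaged higher in TRF CT12 hearts (14.4 ± 7.35 CPM) than in AL CT0 hearts (6.99 ± 1.98 CPM; SD, n = 3 each). All values in this paragraph describe the choice of groups and are not tested. Dbp, a D-box activator, was 22.1, 7.54 and 13.4 CPM in TRF libraries 10, 11 and 12, against 8.69, 4.82 and 7.47 CPM in AL library 38, AL library 39 and the 3-digit AL library. The groups overlapped, and both lay well below the 72.1 to 129.0 CPM of the TRF KO CT0 hearts and the 78.3 to 102.1 CPM of the TRF WT CT0 hearts. Other heart groups had Dbp as low, with 10.4 to 12.0 CPM in AL KO CT0 hearts and 16.7 to 20.9 CPM in AL KO CT12 hearts. The TRF KO CT12 hearts spread from 10.2 to 64.1 CPM and the AL WT CT12 hearts from 32.6 to 128.5 CPM. Nfil3 was 33.5, 28.2 and 35.7 CPM in the TRF CT12 hearts and 30.5, 30.1 and 29.1 CPM in the AL CT0 hearts, the 2 highest group means of the 8 heart groups, which did not differ beyond their spread. The next groups down were the AL KO CT0 hearts, at 28.3 ± 0.117 CPM (SD, n = 3), and the AL KO CT12 hearts, at 25.1 ± 1.58 CPM (SD, n = 3).

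The core activators went against a full match. Arntl, the partner of CLOCK, was 9.76, 22.6 and 11.7 CPM in the TRF CT12 hearts and 25.4, 29.2 and 26.0 CPM in the AL CT0 hearts. Library 11 came close to the AL level, while libraries 10 and 12 were within or next to the 8.77 to 12.2 CPM of TRF WT CT0 hearts, so that high Arntl, unlike high Nfil3, did not mark all 6 hearts. Npas2, which can replace CLOCK, gave the same split, with 2.01, 11.3 and 3.36 CPM in TRF CT12 hearts and 9.45, 10.6 and 10.9 CPM in AL CT0 hearts. Clock itself was 22.8, 31.4 and 27.7 CPM in TRF CT12 hearts against 40.1, 44.3 and 42.0 CPM in AL CT0 hearts, with no overlap. Of the repressors, the Per genes ran the other way on average. Per2 was 78.1, 20.2 and 48.6 CPM in TRF CT12 hearts and 16.9, 6.52 and 12.8 CPM in AL CT0 hearts, and Per1 was 84.1, 91.0 and 64.9 CPM against 41.1, 21.7 and 34.7 CPM. Per3 was 52.0, 14.7 and 38.0 CPM in TRF CT12 hearts and 14.3, 13.3 and 16.7 CPM in AL CT0 hearts, so again library 11 lay with the AL hearts. Tef, a D-box activator whose E-box site is shown above, was 277.9, 124.8 and 207.0 CPM in TRF CT12 hearts and 127.6, 100.7 and 119.8 CPM in AL CT0 hearts.

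Among the remaining core clock genes, most overlapped between the groups. Cry1, the repressor whose E-box site is shown above, was 26.3, 19.4 and 28.8 CPM in TRF CT12 hearts and 20.1, 20.0 and 20.8 CPM in AL CT0 hearts, and its relative Cry2 was 59.4, 38.3 and 49.5 CPM against 39.9, 34.3 and 38.0 CPM. Nr1d1, which encodes REV-ERB alpha, was 33.1, 23.1 and 21.7 CPM in TRF CT12 hearts and 26.7, 40.8 and 30.9 CPM in AL CT0 hearts. Nr1d2, which encodes REV-ERB beta, was 54.0, 26.7 and 32.1 CPM in TRF CT12 hearts and 27.4, 28.0 and 26.6 CPM in AL CT0 hearts. Hlf was 28.9, 14.8 and 26.6 CPM in TRF CT12 hearts and 13.6 to 15.6 CPM in AL CT0 hearts, with library 11 again at the AL level. The E-box repressors Bhlhe40 and Bhlhe41 did not overlap: Bhlhe40 was 45.8, 33.3 and 27.0 CPM in TRF CT12 hearts against 21.1 to 25.4 CPM in AL CT0 hearts, and Bhlhe41 was 12.1 to 13.0 CPM against 15.3 to 16.3 CPM. Ciart, a repressor of the ARNTL complex, and the ROR element activator Rora overlapped, with Ciart highest in library 10 at 8.23 CPM and at 2.64 to 3.38 CPM in the other 5 hearts. Among 17 clock-output genes 5 lay above in TRF CT12 hearts and 1 below, where 11.1% of all genes tested lay above and 11.1% below. The deadenylase Noct was above, at 80.8, 38.6 and 50.7 CPM in TRF CT12 hearts and 30.8, 24.4 and 28.9 CPM in AL CT0 hearts.

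**Figure D1:**
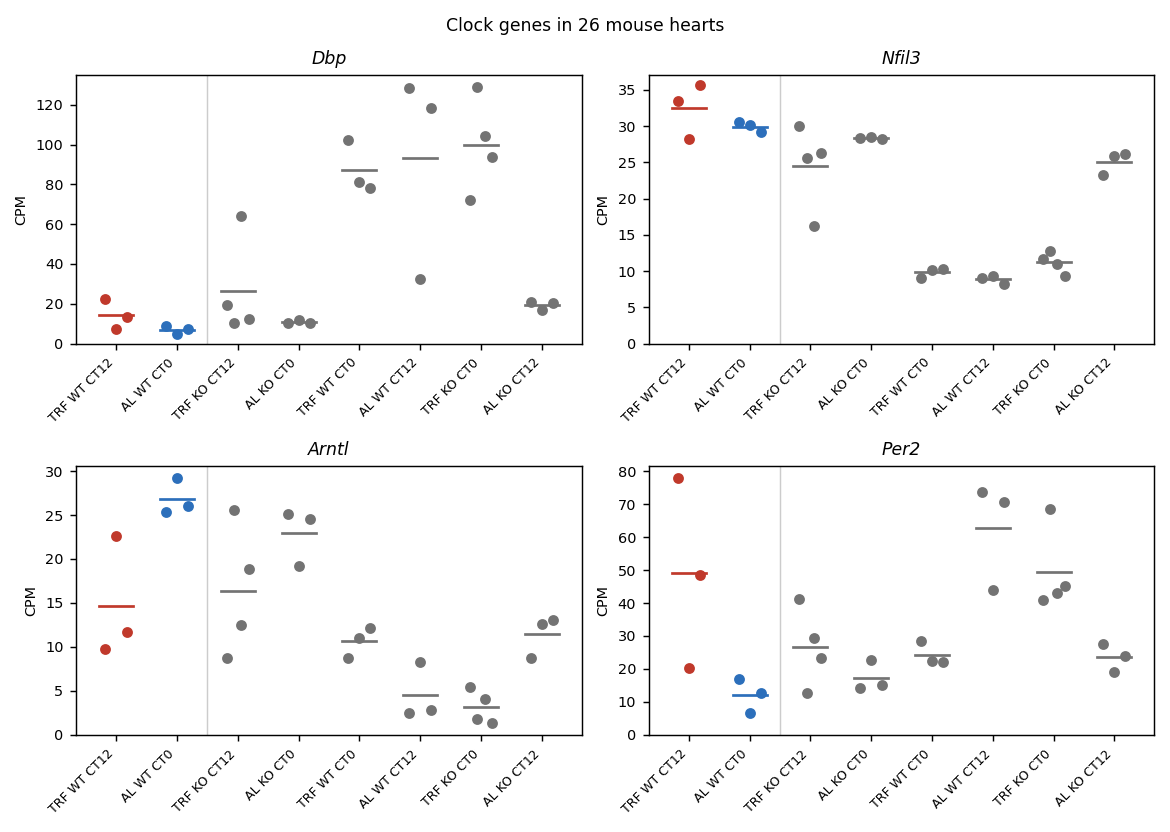
CPM of Dbp, Nfil3, Arntl and Per2 in every heart library by group, TRF WT CT12 in red and AL WT CT0 in blue, with the other 6 heart groups in grey; lines are group means. Dbp is low and Nfil3 high in both coloured groups, while 2 of the 3 TRF CT12 libraries have Arntl at 9.76 and 11.7 CPM, below all 3 AL CT0 libraries, and Per2 at 78.1 and 48.6 CPM, above them.

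Over the 19 core clock genes, the root mean square log2 distance from the AL WT CT0 mean was 0.454 for library 11, 0.870 for library 12 and 1.25 for library 10. From the TRF WT CT0 mean it was 1.28 for library 11, 1.16 for library 12 and 0.994 for library 10, so library 10 was nearer to the TRF CT0 hearts than to the AL CT0 hearts. In 6 of the 19 core clock genes the groups did not overlap, 3 higher and 3 lower in TRF CT12 hearts, where 22.2% of all genes tested did not overlap. Feeding, circadian time and the difference in clock phase that was left therefore cannot be told apart in what follows.

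Outside the clock, 19 of 16397 genes (0.116%) changed between TRF CT12 and AL CT0 hearts at an adjusted p below 0.05 in edgeR's quasi-likelihood test, 15 higher (0.0915%) and 4 lower (0.0244%) in TRF CT12 hearts. Among those averaging 5 CPM or more, Tmem100, Olfr1033, Ednra and Tsc22d3 rose most and Fscn1 and Apln fell most. In 18 of the 19 genes the log2 change was between -0.72 and 1.27. In all 19 genes the 3 TRF CT12 libraries and the 3 AL CT0 libraries did not overlap, as in 22.2% of all genes tested. The number of calls rested on single libraries and on the fit. Without the 3-digit AL library, 0 genes passed in edgeR (1155 at an unadjusted p below 0.05), and the 19 genes kept their direction with adjusted p from 0.132 to 0.365. It was 4 without 39, 5 without 38, 1 without 10, 6 without 12 and 111 without 11. With the brain-bearing AL WT CT12 group left out of the fit, 223 genes passed (121 higher and 102 lower), all 19 among them, and 8 of all genes did so when the 3-digit AL library was left out too. DESeq2 called 171 genes (126 higher and 45 lower), including 18 of the 19.

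The largest change by the naming rule was in Tmem100, a membrane protein of endothelial cells downstream of BMP signalling (chromosome 11, 90030348 to 90036508, plus strand, GRCm38). Its levels were 21.0, 15.1 and 18.3 CPM in TRF CT12 hearts and 6.76, 8.64 and 7.01 CPM in AL CT0 hearts. The lowest TRF CT12 heart was above the highest AL CT0 heart, with a log2 change of 1.27 ± 0.20 (SE) and an adjusted p of 0.0154. Ednra, the endothelin receptor of smooth muscle and cardiomyocytes (chromosome 8, 77663031 to 77724464, minus strand), had 67.1, 47.6 and 52.7 CPM in TRF CT12 hearts and 30.2, 36.6 and 30.9 CPM in AL CT0 hearts. It rose by 0.78 ± 0.15 in log2 (SE, adjusted p 0.0367). Apln, whose product apelin acts on vessels and raises cardiac contractility (chromosome X, 48025146 to 48034853, minus strand), fell to 14.0, 15.2 and 13.2 CPM in TRF CT12 hearts, against 21.1, 23.7 and 20.7 CPM in AL CT0 hearts. Its log2 change was -0.63 ± 0.12 (SE, adjusted p 0.0367). Pla2g4e, a calcium-dependent acyltransferase that makes N-acyl phospholipids, rose by 0.49 ± 0.09 in log2 (SE), with 15.4, 16.0 and 16.5 CPM in TRF CT12 hearts and 10.7, 11.2 and 12.0 CPM in AL CT0 hearts.

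Filip1, which binds filamin A, had 153.0, 110.4 and 122.7 CPM in TRF CT12 hearts and 86.3 to 89.2 CPM in AL CT0 hearts, a log2 change of 0.55 ± 0.11 (SE). Strip2, a subunit of the STRIPAK phosphatase complex, had 140.2, 126.2 and 146.3 CPM in TRF CT12 hearts and 88.7, 97.3 and 92.6 CPM in AL CT0 hearts. It rose by 0.57 ± 0.09 in log2 (SE, adjusted p 0.0186). Frmd5, a FERM-domain protein of cell junctions, rose by 0.65 ± 0.12 and Fry, a large scaffold protein, by 0.68 ± 0.13 in log2 (SE). Fscn1, the actin bundler fascin, fell to 25.5, 39.4 and 33.7 CPM in TRF CT12 hearts, against 52.4, 56.9 and 52.8 CPM in AL CT0 hearts, a log2 change of -0.72 ± 0.14 (SE, adjusted p 0.0488).

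Slc25a22, the mitochondrial glutamate carrier (chromosome 7, 141429744 to 141437892, minus strand), fell to 56.5, 65.9 and 65.2 CPM in TRF CT12 hearts, against 92.3, 90.1 and 87.7 CPM in AL CT0 hearts. Its log2 change was -0.52 ± 0.09 (SE, adjusted p 0.0323). Gfpt2, which commits glucose to hexosamine synthesis, rose by 0.69 ± 0.14 in log2 (SE), with 17.9, 23.4 and 18.9 CPM in TRF CT12 hearts and 11.1, 15.4 and 10.9 CPM in AL CT0 hearts. Tsc22d3 (GILZ), a glucocorticoid-induced regulator of transcription (chromosome X, 140539528 to 140600659, minus strand), had 118.6, 103.7 and 102.7 CPM in TRF CT12 hearts and 70.3, 59.4 and 66.4 CPM in AL CT0 hearts. It rose by 0.73 ± 0.15 in log2 (SE, adjusted p 0.0488). Mtmr10, a myotubularin-related protein, rose by 0.52 ± 0.11, Lrp3, a member of the LDL receptor family, fell by 0.45 on the log2 scale, and Olfr1033, annotated as an olfactory receptor gene, rose by 0.88 ± 0.17 in log2 (SE).

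The remaining 3 called genes fell outside the rule for named genes and were added after their values were seen. They are 1700025G04Rik, with the smallest adjusted p of the comparison (log2 change 0.49 ± 0.07, SE, adjusted p 0.0117), the homeodomain-interacting kinase Hipk1 (0.40 ± 0.08, SE) and the lipoxygenase Alox15. Alox15 had no read in any AL CT0 heart and 1.04, 0.319 and 2.04 CPM in the TRF CT12 hearts, a mean at least 6.44-fold higher than a floor of 3 counts per library (0.176 CPM).

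**Figure D2:**
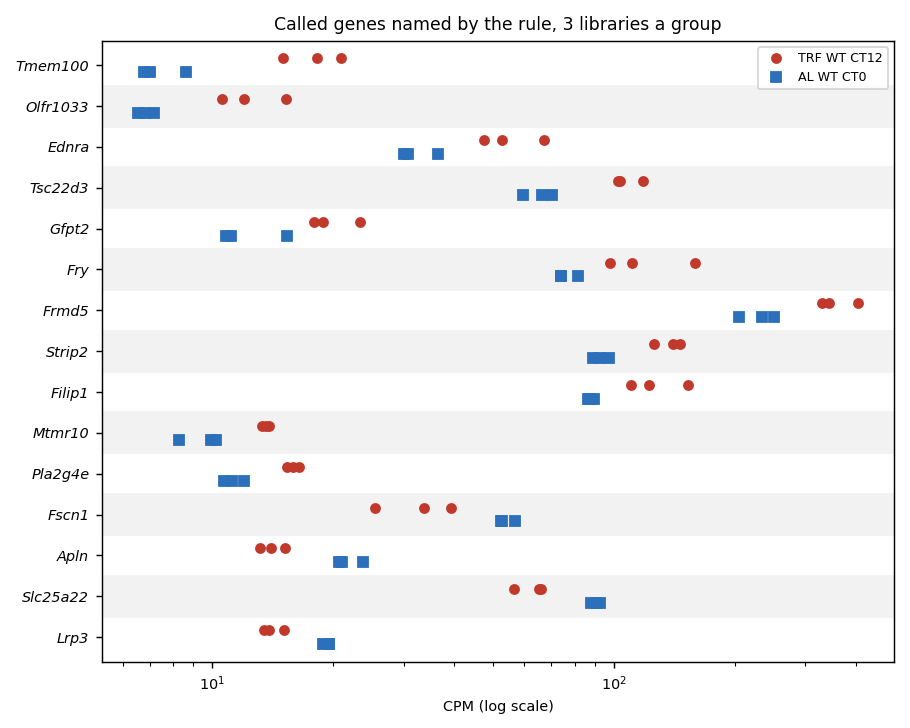
CPM on a log axis of 15 of the 16 called genes that the naming rule gave, with 3 TRF WT CT12 libraries (red circles) above 3 AL WT CT0 libraries (blue squares) for each gene. The groups do not overlap in any of the 15 genes; Tmem100 shows the widest gap, at 15.1 to 21.0 against 6.76 to 8.64 CPM.

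Of the 19 called genes, 15 had a promoter window, and 3 held one of the letters searched: Lrp3 with CACGTG (chr7:35215346-35215375, minus strand, 17 bases before the start), Frmd5 with AGGTCA read on the other strand (chr2:121807092-121807121, minus strand, 52 bases before) and Tsc22d3 with AGAACA read on the other strand (chrX:140600690-140600719, minus strand, 185 bases before). The Tsc22d3 site is shown because the gene is the single called member of the glucocorticoid list and the others because they moved in opposite directions.
Tsc22d3: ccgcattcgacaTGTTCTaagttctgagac
Lrp3: tcggcgggcgcgtCACGTGgctagcgcggc
Frmd5: gttccgccgcgcTGACCTccattggccccc
A match is a description of the sequence, and 1 gene of 15 held each motif.

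TRF WT hearts at CT0 give each called gene a further level at the other feeding or the other time. Those values share libraries with the comparison above and are set beside it without a count of agreement. Frmd5 stood at 186.6, 168.1 and 155.5 CPM in TRF CT0 hearts, below the 205.0 to 251.1 CPM of AL CT0 hearts, and TRF CT12 minus TRF CT0 was 1.08 in log2. Olfr1033 stood at 4.55 to 5.56 CPM in TRF CT0 hearts and Ednra at 23.7 to 33.4 CPM, close to or below their AL CT0 levels. Slc25a22 was 84.9, 86.6 and 89.6 CPM in TRF CT0 hearts, near its AL CT0 level, with TRF CT0 minus AL CT0 at -0.05 and TRF CT12 minus TRF CT0 at -0.48 in log2. Tmem100 lay between, at 10.2 to 11.9 CPM. Over all genes, 477 (2.91%) changed between TRF and AL hearts at CT0, 277 higher (1.69%) and 200 lower (1.22%). Between CT12 and CT0 under TRF 718 (4.38%) changed, 363 higher (2.21%) and 355 lower (2.17%). The TRF WT CT0 hearts carried liver RNA (Alb 143 to 180 CPM), and its part in these values was not tested.

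Of the genes induced by fasting through PPAR alpha, 0 of 18 tested passed in edgeR. At an unadjusted p below 0.05, 1 was higher and 6 were lower in TRF CT12 hearts, where 1683 of all genes (10.3%) passed in either direction, and DESeq2 called 1 higher and 3 lower (Angptl4, Pdk4 and Ucp3). In 10 of the 18 all TRF CT12 libraries lay below all AL CT0 libraries, and in 2 above, where 11.1% of all genes lay below and 11.1% above. The median log2 change of the list was -0.27, against -0.01 over all genes tested. Pdk4, the kinase that shuts off pyruvate oxidation, was 183.8, 446.8 and 353.6 CPM in TRF CT12 hearts and 565.1, 680.4 and 577.0 CPM in AL CT0 hearts, a log2 change of -0.89 ± 0.27 (SE, adjusted p 0.232). Angptl4, a secreted inhibitor of lipoprotein lipase, was 4.43, 6.32 and 14.1 CPM in TRF CT12 hearts and 35.7, 23.1 and 32.2 CPM in AL CT0 hearts, a log2 change of -1.87 ± 0.43 (SE, adjusted p 0.0871). Ucp3, a mitochondrial carrier induced by fatty acids, was 23.1, 56.6 and 42.6 CPM in TRF CT12 hearts and 81.4, 83.6 and 79.7 CPM in AL CT0 hearts. Malonyl-CoA decarboxylase (Mlycd), which relieves the block on fatty acid import, was 147.4, 185.2 and 173.0 CPM in TRF CT12 hearts and 234.1, 230.3 and 231.4 CPM in AL CT0 hearts. With the AL WT CT12 group left out of the edgeR fit, 1 of the 18 passed as higher and 1, Mlycd, as lower (log2 change -0.46, adjusted p 0.0354). Library 10, the farthest from the AL hearts in clock genes, was lowest of the 3 TRF CT12 hearts in 13 of the 18 genes.

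Of the heat shock chaperones, which refold proteins and follow body temperature, 0 of 20 passed in edgeR. At an unadjusted p below 0.05, 10 were higher and 0 lower in TRF CT12 hearts, where 10.3% of all genes passed in either direction, and DESeq2 called 3 higher (Hsp90ab1, Hspa1a and Hspa1b). In 11 of 20 genes all TRF CT12 libraries lay above all AL CT0 libraries and in 1, Fkbp4, below, against 11.1% of all genes each way, with a median log2 change of 0.28. Hspa1b, the inducible HSP70, was 10.0, 21.6 and 22.7 CPM in TRF CT12 hearts and 9.10, 2.17 and 6.50 CPM in AL CT0 hearts (log2 change 1.61 ± 0.36, SE, adjusted p 0.0809). Its near-identical copy Hspa1a was 6.64, 11.9 and 11.3 CPM in TRF CT12 hearts and 4.96, 1.59 and 4.02 CPM in AL CT0 hearts, and the counting could have split reads between them. Hsp90aa1, the inducible HSP90, was 121, 177 and 138 CPM in TRF CT12 hearts and 84.6, 81.9 and 89.7 CPM in AL CT0 hearts. Dnajb1, which encodes a co-chaperone of HSP70, was 38.4, 51.2 and 47.6 CPM in TRF CT12 hearts and 36.0, 18.5 and 28.2 CPM in AL CT0 hearts. Without the AL WT CT12 group in the fit, 5 of the 20 passed, all higher: Hsp90aa1, Hsp90ab1, Stip1, Hspa1a and Hspa1b. Here library 10 was the lowest of the TRF CT12 hearts in 15 of 20 genes, and in library 10 Hspa1b was close to the level of AL library 38.

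**Figure D3:**
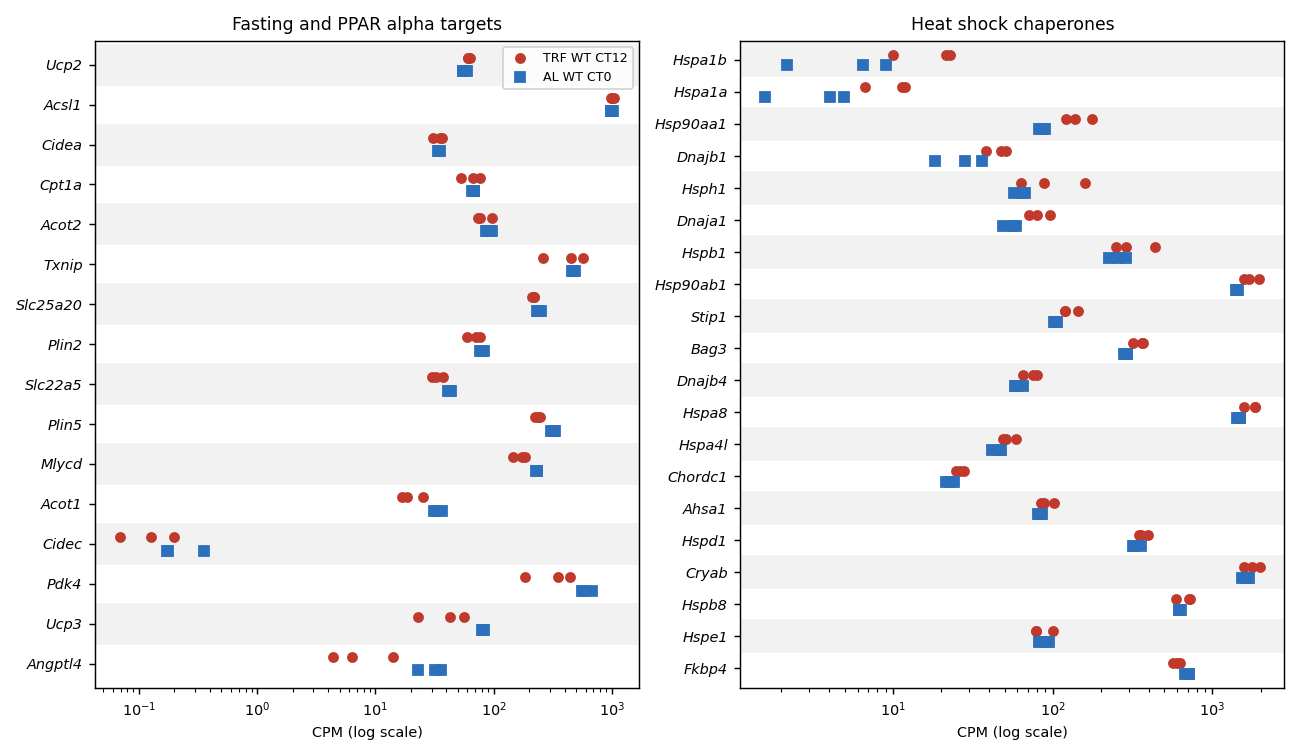
CPM on a log axis of 16 of the 18 fasting and PPAR alpha genes (left; Creb3l3, with libraries at 0, is among those not drawn) and of the 20 heat shock chaperones (right), 3 TRF WT CT12 libraries in red above 3 AL WT CT0 libraries in blue, ordered by log2 change. Most fasting genes lie to the left in red, and most chaperones lie to the right in red.

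Among glucocorticoid targets, Tsc22d3 was the 1 of 19 called. In 5 of the 19 the TRF CT12 libraries all lay above and in 1, Pdk4, all below, against 11.1% of all genes each way, with a median log2 change of 0.32. The list shares Per1 and Klf9 with the clock and clock-output lists. Per1 is among the genes above, so part of this count follows the clock genes described earlier. Zbtb16, a transcription factor strongly induced by glucocorticoids, was 292.6, 69.4 and 167.0 CPM in TRF CT12 hearts and 63.4, 28.1 and 51.7 CPM in AL CT0 hearts. Fkbp5, a co-chaperone of the glucocorticoid receptor, was 112, 25.5 and 40.4 CPM in TRF CT12 hearts, against 21.4 to 28.3 CPM in AL CT0 hearts. Library 10 was the highest of the TRF CT12 hearts in 11 of the 19 genes, and the adjusted p of Zbtb16 was 0.231.

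In 10 of 18 sarcomere genes all TRF CT12 libraries lay above all AL CT0 libraries and in 0 below, against 11.1% of all genes each way, with a median log2 change of 0.12. Of the 18, 0 passed in edgeR, 3 were higher and 0 lower at an unadjusted p below 0.05, and DESeq2 called Myom2. Myh6, the main myosin heavy chain of the adult mouse heart, was 40567, 39190 and 39727 CPM in TRF CT12 hearts and 33769, 34830 and 32251 CPM in AL CT0 hearts. Myom2, an M-band protein of fast-contracting fibres, was 2348, 2508 and 3031 CPM in TRF CT12 hearts and 1748, 1763 and 1695 CPM in AL CT0 hearts (log2 change 0.60 ± 0.13, SE, adjusted p 0.0707). Of 7 endothelial markers 5 lay below in TRF CT12 hearts (4 with RLE scaling) and 0 above, beside the same 11.1% of all genes each way, and 0 passed in edgeR (2 lower at an unadjusted p below 0.05). The VEGF receptor Kdr was among them, at 199, 247 and 225 CPM in TRF CT12 hearts against 251, 338 and 265 CPM in AL CT0 hearts. The summed endothelial markers were 1293 to 1484 CPM in TRF CT12 hearts and 1526 to 1641 CPM in AL CT0 hearts, while fibroblast markers were 535 to 589 CPM and 554 to 608 CPM. In bulk samples, fewer cells of a type and less RNA per cell cannot be told apart, and the part of these marker shifts in the calls for Tmem100, Ednra and Apln was not tested.

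The counts of the other lists are to be read against the 11.1% of all genes that lay above and the 11.1% that lay below. Of 14 glycogen genes, 7 lay above and 1 below. Among those above was Ppp1r3c, which targets phosphatase to glycogen, at 262, 190 and 218 CPM in TRF CT12 hearts and 172, 179 and 169 CPM in AL CT0 hearts. Of 17 immediate early genes 5 lay above, with the nuclear receptor Nr4a3 at 4.43, 7.47 and 3.89 CPM in TRF CT12 hearts and 1.57, 1.41 and 1.61 CPM in AL CT0 hearts (adjusted p 0.0728). Of 18 insulin and FoxO targets 4 lay above, with Irs2, an insulin receptor substrate, at 20.0, 27.1 and 26.0 CPM against 12.5, 13.7 and 10.6 CPM, and 4 below. Of 22 fatty acid oxidation and uptake genes 4 lay above and 3 below, with a median log2 change of -0.02. Ribosomal protein genes (8 of 28 above, 3 below) and proteasome genes (8 of 18 above, 4 below) had median log2 changes of -0.02 each. Of 22 collagen and matrix genes 2 lay above and 2 below, with a median of -0.31 and 1 higher and 8 lower at an unadjusted p below 0.05, and library 10 was the lowest TRF CT12 heart in 18 of them. Of 14 cardiac stress and fetal genes 5 lay above and 0 below. Those above include Myh6 and Actc1, which are also counted among the sarcomere genes, and Myh6 is the adult form. The natriuretic peptide gene Nppb overlapped between the groups, at 155, 237 and 331 CPM in TRF CT12 hearts and 130.4, 160.9 and 140.0 CPM in AL CT0 hearts.

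**Figure D4:**
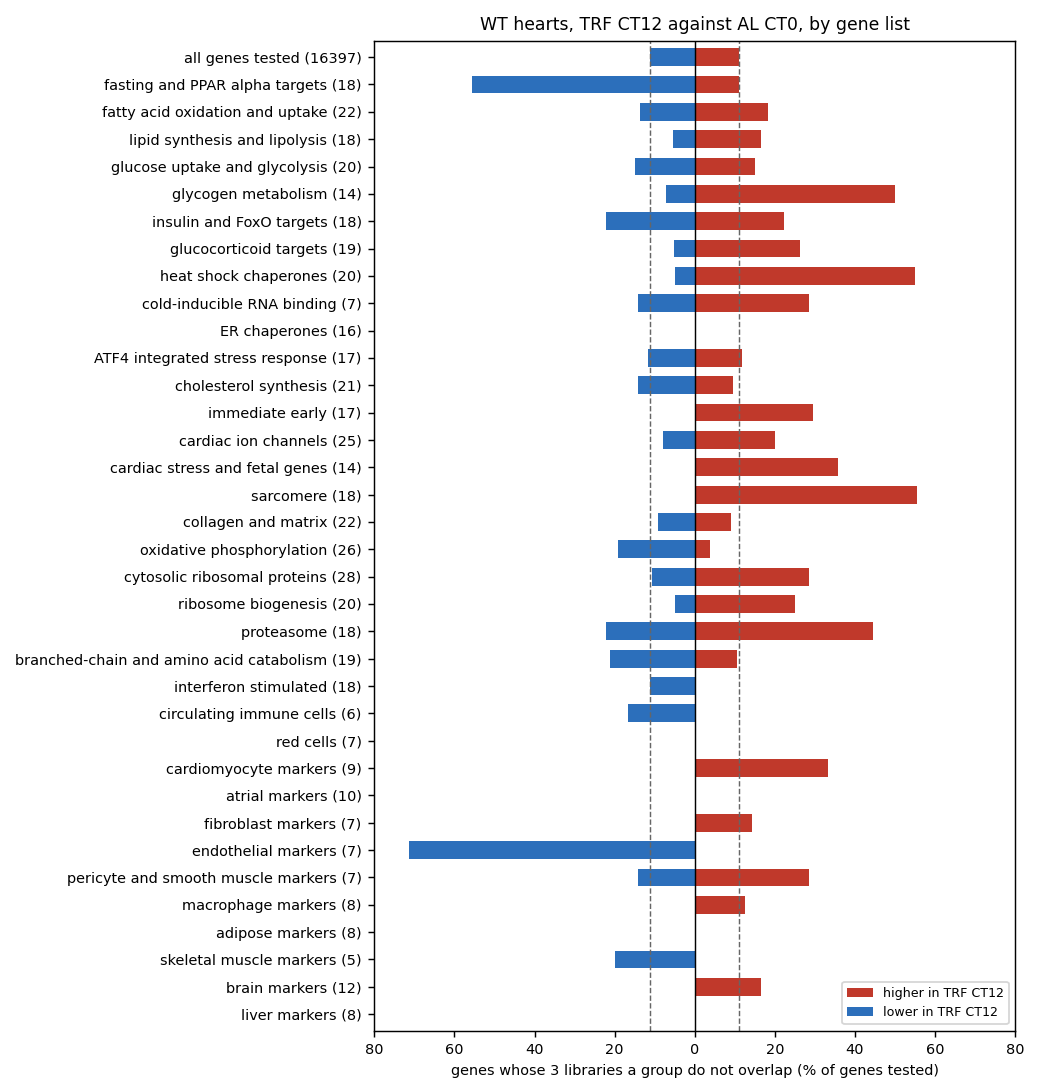
Share of the genes tested in each of 35 lists (number in brackets) whose 3 TRF WT CT12 libraries all lie above (red, right) or all below (blue, left) the 3 AL WT CT0 libraries; dashed lines mark the 11.1% found in each direction over all genes. Fasting genes and endothelial markers reach farthest to the left, sarcomere, heat shock and glycogen genes farthest to the right.

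Without the 3-digit AL library, 10 of 18 fasting genes lay below, 11 of 20 chaperones above, 10 of 18 sarcomere genes above and 5 of 7 endothelial markers below, while the share over all genes was 14.0% above and 14.2% below. Leaving out a library can keep or raise such counts but hardly lower them, so they are no check of stability. The lists were chosen with earlier results of these data known, so the counts describe them and are no test.

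The KO hearts repeat the comparison in libraries that the choice of groups did not use. Arntl, the gene named in the genotype label, was present in the KO hearts, at 8.76, 25.5, 12.4 and 18.9 CPM in TRF KO CT12 and 25.1, 19.2 and 24.5 CPM in AL KO CT0 hearts. The heart is not stated to be a tissue of the deletion, so these levels do not check it, and Vip encodes a neuropeptide of SCN neurons. Dbp was 19.6, 10.2, 64.1 and 12.3 CPM in TRF KO CT12 hearts and 10.4, 12.0 and 10.5 CPM in AL KO CT0 hearts, so library 30 stood outside the low-Dbp phase. Of 16397 genes, 179 (1.09%) changed, 20 higher (0.122%) and 159 lower (0.97%) in TRF KO CT12 hearts. Atrial markers summed to 101 to 110 CPM in TRF KO CT12 hearts and 1647 to 4091 CPM in AL KO CT0 hearts, and 8 of the 10 were among the 159 genes that fell. Adipose markers summed to 33.5 to 38.8 CPM and 51.6 to 92.6 CPM, and 4 of the 8 tested were called lower. Liver markers summed to 2.51 to 4.38 CPM and 10.5 to 181 CPM, with 0 of 8 called. The part of atrial, adipose and liver RNA in the other falls was not tested. Without library 57, the AL KO CT0 heart with the most Sln, 67 genes passed, and 143 did with library 56 and the 3-digit AL KO CT0 library summed. Sln itself was at 0 in 3 of 4 TRF KO CT12 hearts.

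Of the 19 genes called in WT hearts, 0 were called in the same direction in KO hearts by edgeR, and 1 was called in the opposite direction. That gene was Slc25a22, at 85.0, 65.5, 75.5 and 77.9 CPM in TRF KO CT12 hearts against 56.4, 68.6 and 53.3 CPM in AL KO CT0 hearts, a log2 change of 0.35 ± 0.09 (SE, adjusted p 0.0441). The sign was the same in 8 of the 19. At an unadjusted p below 0.05, where 10.8% of all genes passed in KO hearts, 116 genes moved the same way in both genotypes, 6.89% of the WT genes and 6.58% of the KO genes at that level, and 87 moved in opposite ways. DESeq2 called 7 genes the same way in both, and 6 were called so with the AL WT CT12 group left out of the fit. Tmem100 was 9.35, 11.9, 15.5 and 11.1 CPM in TRF KO CT12 hearts and 11.9, 14.1 and 11.1 CPM in AL KO CT0 hearts, so its KO levels lay between the WT groups. Tsc22d3 was 66.7 to 79.9 CPM in TRF KO CT12 hearts and 67.0 to 84.3 CPM in AL KO CT0 hearts, near the AL WT CT0 level. Pla2g4e came closest to its WT change, at 0.30 ± 0.09 in log2 (SE, adjusted p 0.113). The fasting list had a median log2 change of 0.18 in KO hearts and -0.27 in WT hearts, with 3 of 18 genes below and 6 above in KO, where 6.93% and 5.84% of all genes lay below and above. Ucp3 was 47.2 to 50.9 CPM in TRF KO CT12 hearts and 32.9 to 37.5 CPM in AL KO CT0 hearts. Sarcomere genes had 9 of 18 above and 0 below in KO hearts, with a median log2 change of 0.16, beside 0.12 in WT hearts. The part of the atrial, adipose and liver RNA of AL KO CT0 hearts in genes that lay above was not tested. This holds for the sarcomere and fasting lists and for Slc25a22. Heat shock chaperones had 4 of 20 above and 1 below in KO hearts (median -0.01). Chaperones of the endoplasmic reticulum had 10 of 16 below and 0 above in KO hearts (median -0.40), with 6 called lower, beside 0.97% of all genes. In WT hearts 0 of these 16 lay above or below (median 0.13). Of 25 cardiac ion channel genes, 5 were called lower in KO hearts, with 5 above and 7 below. Endothelial markers had 2 of 7 above and 1 below (median 0.06).

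**Figure D5:**
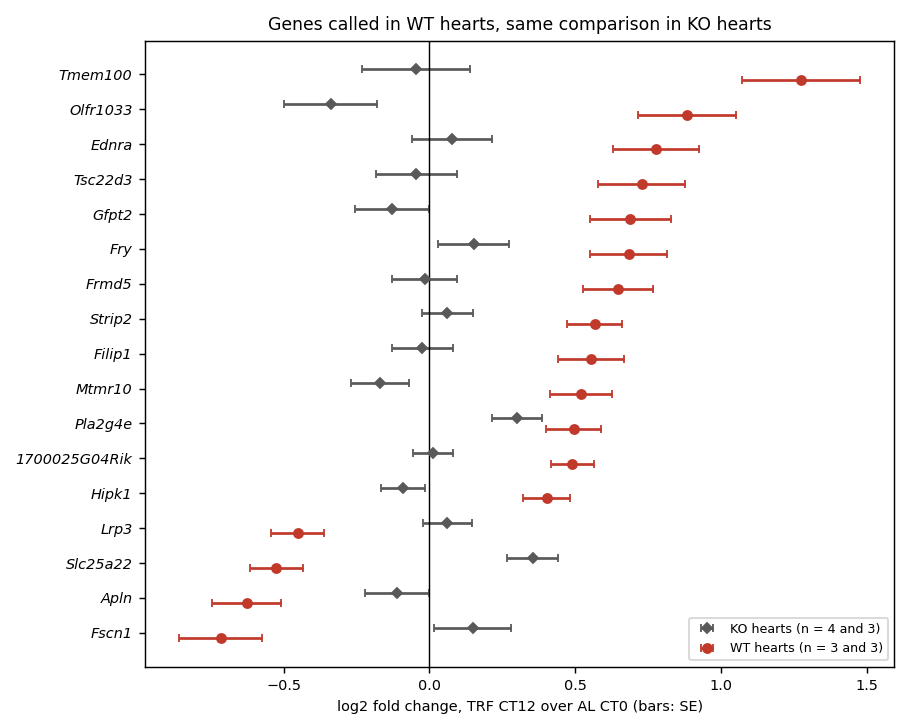
Log2 fold change of TRF CT12 over AL CT0 with its SE for 17 of the 19 genes called in WT hearts (Alox15 is among those left out), KO hearts as grey diamonds above WT hearts as red circles. WT changes reach from -0.72 to 1.27, while KO changes stay between -0.34 and 0.35, with Slc25a22 on opposite sides.

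The difference between genotypes was tested directly as KO minus WT. It passed for 15 of 16397 genes (0.0915%; 1653 or 10.1% at an unadjusted p below 0.05), 4 higher (0.0244%) and 11 lower (0.0671%) in KO. Rasgef1b, a guanine nucleotide exchange factor for Rap2, differed by -1.74 ± 0.27 in log2 (SE, adjusted p 0.00553). Its levels were 7.52, 5.91, 6.71 and 5.75 CPM in TRF KO CT12 and 11.2, 13.1 and 10.8 CPM in AL KO CT0 hearts, against 10.9, 7.28 and 7.64 CPM in TRF WT CT12 and 4.02, 4.41 and 5.52 CPM in AL WT CT0 hearts. Ehhadh, the peroxisomal bifunctional enzyme of fatty acid oxidation, differed by 1.03 ± 0.17 (SE, adjusted p 0.0125). It was 18.0, 17.0, 19.2 and 18.4 CPM in TRF KO CT12 and 11.8, 12.3 and 14.5 CPM in AL KO CT0 hearts, against 13.4, 17.6 and 13.5 CPM in TRF WT CT12 and 20.6, 22.0 and 21.9 CPM in AL WT CT0 hearts. Slc25a22 differed by 0.88 ± 0.13 (SE, adjusted p 0.00553) and Olfr1033 by -1.22 ± 0.23 (SE, adjusted p 0.0341). Cacna2d2 and Kcnj3, an auxiliary calcium channel subunit and the GIRK1 potassium channel of the atrium, differed by -2.78 and -1.10, with high levels in the AL KO CT0 hearts that carried atrial RNA. For Cacna2d2 these were 15.8, 35.0 and 13.6 CPM, against 2.21 to 3.16 CPM in the 6 WT hearts. Of the 19 genes called in WT hearts only Slc25a22 and Olfr1033 passed this test in edgeR, and Tmem100 had a difference of -1.32 ± 0.27 (SE, adjusted p 0.063). The count was 3 without library 57, 4 without 38, 5 without the 3-digit AL library, 6 without 10, 39 or 56, 8 without 30 and 29 without 11 or 64, and DESeq2 called 171.

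In the livers with the same title numbers, the comparison differed for 83 of 17656 genes (0.47%), 31 higher (0.176%) and 52 lower (0.295%) in heart minus liver. With RLE scaling the split was 47 higher and 35 lower of 82. Slc25a22, lower in TRF CT12 hearts, had 547.2, 312.8 and 334.7 CPM in TRF CT12 livers and 238.5, 302.7 and 239.2 CPM in AL CT0 livers, a heart minus liver difference of -1.16 ± 0.28 in log2 (SE, adjusted p 0.0428). Tsc22d3 rose in TRF CT12 livers as well (log2 change 0.85, edgeR adjusted p 0.022), at 280.9, 111.4 and 169.2 CPM against 116.9, 84.6 and 110.0 CPM in AL CT0 livers, and the tissue difference of -0.14 ± 0.32 did not pass (SE, adjusted p 0.922). Grb10, an adaptor that dampens insulin receptor signalling, was 122, 109 and 122 CPM in TRF CT12 hearts and 98.9, 95.4 and 93.6 CPM in AL CT0 hearts, while in liver it was 2.40, 4.27 and 3.64 CPM in TRF CT12 and 12.7, 5.52 and 10.8 CPM in AL CT0. Its tissue difference was 1.77 ± 0.26 in log2 (SE, adjusted p 0.000643). Rsad2, the interferon-induced viperin, was 10.4, 15.3 and 16.3 CPM in TRF CT12 hearts and 17.7, 19.5 and 15.3 CPM in AL CT0 hearts, against 1.23, 3.62 and 1.56 CPM in TRF CT12 livers and 12.3, 9.53 and 15.0 CPM in AL CT0 livers (difference 2.18 ± 0.36, SE, adjusted p 0.00201). This count rested on single libraries, at 4 genes without the 3-digit AL library, 6 without 38, 12 without 12, 33 without 10, 145 without 11 and 228 without 39. It was 27 with the title number as a replicate block and 3 in the fit of only the groups compared.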

How the data were processed

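Per the labels' protocols, RNA was taken with TRIzol and 1.3 ug of total RNA per library was prepared with the NEBNext Ultra II kit. FastQC 0.11.8, STAR and the build mm10 (GRCm38) are named in the submitters' processing notes. The STAR version, the counter, its strand setting and its annotation are not given in the sources used here, so reads of a gene and an antisense neighbour cannot be told apart. The authors deposited raw counts per gene, 38129 entries by 76 libraries, and no column was left unmapped.

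Genes were kept by filterByExpr over the 8 heart groups (16397 genes) or over heart and liver (17656 genes). TMM factors scaled the counts, and edgeR 4.0.16 fitted a robust quasi-likelihood group-means model over all 26 hearts, or 26 hearts and the livers of the same groups. P-values were adjusted by Benjamini and Hochberg over all genes tested, and a gene was called below 0.05. CPM uses the TMM factors. Standard errors (SE) are of the log2 change. A gene's groups do not overlap where every library of one lies above every library of the other. DESeq2 1.42.0 was an alternative, with other fits listed in the closing section. The heart edgeR fit of the WT comparison was tested on simulated counts with the same spread in every gene and no library with foreign RNA. The other fits and tests were not simulated. Total counts per heart library were 15049374 to 17878150; floors cover counting error only.

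The groups, the members and the gene lists (39 lists with 575 genes, 2 with no entry) were chosen with earlier results of these data known. Core clock and clock-output genes were described without a test. Genes named were the 12 largest rises and 12 largest falls of called genes that averaged 5 CPM or more over the 6 hearts and whose groups do not overlap, without predicted genes, haemoglobins, immunoglobulin segments and clock lists. Up to 3 called members of each list, the core clock genes, and the 5 most positive and 5 most negative called genes of the genotype and tissue differences were added, with the same minimum over all libraries compared and no condition on overlap. Coordinates are from GENCODE vM21 and promoter windows from RefSeq (GRCm38.p6). Values of 4 genes are not reported here, although counts over lists and calls include them. R 4.3.3 and Python 3.11.15 were used.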

Additional observations from a re-analysis of the deposited data

Results flagged for a closer look

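The values below were picked out because a test of the difference between genotypes or tissues passed in edgeR. They come from the 5 most positive and 5 most negative called genes of each difference that averaged 5 CPM or more over all libraries compared, whether or not the groups overlap.

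The log2 difference TRF CT12 minus AL CT0, taken as KO minus WT, was 1.03 for Ehhadh, 0.88 for Slc25a22, -2.78 for Cacna2d2, -1.74 for Rasgef1b, -1.22 for Olfr1033 and -1.10 for Kcnj3, with library values in the report. Fli1, an ETS factor of endothelial and blood cells, differed by 0.64 (adjusted p 0.0341). It was 18.8 to 21.0 CPM in TRF KO CT12 and 15.5 to 16.5 CPM in AL KO CT0 hearts, against 14.2 to 16.6 CPM in TRF WT CT12 and 18.7 to 20.5 CPM in AL WT CT0 hearts. Cdk18, a cyclin-dependent kinase, differed by 0.55 (adjusted p 0.0419), with 35.7 to 38.9 CPM in TRF KO CT12 and 28.0 to 30.5 CPM in AL KO CT0 hearts, against 27.5 to 31.7 CPM in TRF WT CT12 and 32.1 to 37.1 CPM in AL WT CT0 hearts. Ndnf, a secreted neuron-derived factor, differed by -1.08 (adjusted p 0.0341), with 7.01 to 8.89 CPM in TRF KO CT12 and 11.7 to 14.0 CPM in AL KO CT0 hearts, against 7.40 to 9.49 CPM in TRF WT CT12 and 5.99 to 6.94 CPM in AL WT CT0 hearts. The AL KO CT0 hearts carried atrial RNA and had higher adipose and liver markers than the TRF KO CT12 hearts. The part of such RNA in these differences was not tested.

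The same change taken as heart minus liver was 2.18 for Rsad2 and 1.77 for Grb10, described in the report. Xirp1, an actin-binding protein of the intercalated disc, differed by 1.94 (adjusted p 0.00308), with 334, 341 and 391 CPM in TRF CT12 hearts and 330.1, 315 and 318 CPM in AL CT0 hearts, against 1.75, 2.65 and 2.08 CPM in TRF CT12 livers and 6.97, 9.03 and 6.92 CPM in AL CT0 livers. Cenpf, a kinetochore protein of dividing cells, differed by 3.97 (adjusted p 0.0244), with at most 0.065 CPM in TRF CT12 livers and 0.167 to 0.996 CPM in AL CT0 livers. Its heart log2 change was 0.40, and the fitted size of the difference rests on these very low liver levels. Dct, a melanin enzyme, differed by 2.81 (adjusted p 0.0216), with 1.24 to 10.6 CPM in TRF CT12 livers and 10.7 to 18.5 CPM in AL CT0 livers.

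In the other direction, Efnb3, an ephrin ligand, differed by -2.48 (adjusted p 0.0328), with 0.455 to 1.10 CPM in TRF CT12 livers and 0.0836 to 0.157 CPM in AL CT0 livers. Its heart log2 change was 0.03, and the fitted size of the difference rests on the very low AL CT0 liver levels. Abcb1a, a drug efflux pump, differed by -1.66 (adjusted p 0.0301), with 2.85 to 6.56 CPM in TRF CT12 livers and 1.10 to 1.67 CPM in AL CT0 livers. Rcor2 had a fitted difference of -6.45 (adjusted p 0.00201), which depends on the prior count because all AL CT0 livers were at 0 and the TRF CT12 livers at 0.194 to 0.781 CPM. Slc17a1, a phosphate and urate transporter, had a fitted difference of -5.58 (adjusted p 0.0301). It did not pass the filter in hearts alone, and was 12.5 to 15.3 CPM in TRF CT12 livers and 8.03 to 11.0 CPM in AL CT0 livers. Its liver log2 change was only 0.59, so the fitted size of the difference rests on low heart counts.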

How the results depend on the processing

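The number of calls moved with the fit. None of the 19 called WT genes, the 9 genes of KO minus WT and the 10 of heart minus liver that were followed through the alternatives changed sign. Counts below are given for the WT comparison, the KO comparison, the KO minus WT difference and heart minus liver, whose main counts were 19, 179, 15 and 83. DESeq2 gave 171, 312 and 171 for the first 3, the fit of only the groups compared gave 250 for WT, 143 for KO minus WT and 3 for heart minus liver, and the fit without the AL WT CT12 group gave 223, 427 and 218. Without the AL libraries that have 3-digit title numbers, 1 in each AL group, the counts were 0, 116, 2 and 0 (1024 genes for WT and 1278 for heart minus liver at an unadjusted p below 0.05). Without a filter on low counts heart minus liver gave 36. The WT count was 0 with library 38 and the 3-digit AL WT CT0 library summed (1178 at an unadjusted p below 0.05), 1 in the fit of only the groups compared without that 3-digit library, and 8 without the AL WT CT12 group and that library; these 3 were chosen after the data were seen. Leaving out each library in turn gave 0 to 111 for WT, 67 to 170 for KO, 3 to 29 for KO minus WT, and 4 to 228 for heart minus liver. Genes called the same way in both genotypes numbered 0, against 7 by DESeq2, 2 in the fit of only the groups compared, 6 without the AL WT CT12 group and 0 to 1 when a library was left out. The cause of these moves was not tested. With the title number as a replicate block, heart minus liver gave 27. Same-numbered hearts and livers deviated together only weakly (r from -0.17 to 0.135). As the 2 tissues can deviate in different genes, this cannot tell whether they came from the same animal. The numbers were not taken as pairs in the main fit, and the groups compared in heart share no number. The 19 WT genes stayed past the threshold in 119 of 284 combinations of gene and alternative, the 9 genes of KO minus WT in 104 of 171, and the 10 of heart minus liver in 59 of 110.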
